A study of Mus musculus with 28 samples.

Results

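The genes described here are Klhl38 and 6 genes of the skeletal muscle atrophy program, namely Fbxo32, Trim63, Fbxo30, Foxo1, Foxo3 and Mstn, followed over the healing of a skin wound in mice. They are 7 of the 29068 genes in the table, and all 7 passed the filter on low counts that left 18107 genes for testing. Klhl38 was selected on its level at Day7 against Day0, as a top decrease, so its values against Day0 are given as a description without a test. The other 6 were chosen by name.

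Total RNA came from the wound site of wild-type C57BL/6J mice (MLKL+/+, 8 weeks old, both sexes), which healed naturally after a 6-mm punch in the skin of the back. The punch reached the fascia, and the whole wound with scab and wound edge was collected, so the tissue could hold skin, fat and muscle in differing amounts. There were 28 libraries, 4 at each of 7 time points (Day0, Day3, Day5, Day7, Day10, Day12 and Day14), with no other genotype or treatment. Day0 is the control in the labels, while the study's methods name day 1 as the earliest time point and count the day of injury as day 1. Whether the libraries of a day came from separate animals is not stated in the labels, and p-values measure the spread between these libraries.

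Muscle atrophy is driven largely by the ubiquitin-proteasome system, in which ubiquitin ligases tag contractile and other proteins for degradation. Fbxo32 (atrogin-1) and Fbxo30 (MUSA1) are F-box subunits that bring substrates to cullin ligases, Trim63 (MuRF1) is a RING finger ligase of the sarcomere, and kelch-like proteins such as Klhl38 belong to a family that brings substrates to the Cul3 ligase. The FoxO factors Foxo1 and Foxo3, which Akt holds back, induce atrophy ligases in fasting and after loss of innervation, and Mstn (myostatin) is a secreted inhibitor of muscle growth that signals through activin receptors. In mouse skin these genes can be read from the panniculus carnosus, a thin sheet of striated muscle under the fat, and the FoxO factors also from many other cell types.

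Positions are those of the RefSeq annotation of GRCm38 (mm10), the build in the submitters' processing notes. Klhl38 (chr15:58314573-58324169, minus strand) and Fbxo32 (chr15:58175879-58214892, minus strand) are neighbours on chromosome 15, with 99680 bases and 1 lncRNA gene, Gm36193, between them. Trim63 lies at chr4:134315120-134329629 (plus strand), Mstn at chr1:53061640-53068079 (plus), Foxo1 at chr3:52268337-52350109 (plus), Foxo3 at chr10:42181845-42276695 (minus) and Fbxo30 at chr10:11281330-11305750 (plus). Of the 7 genes, 5 had a promoter in the RefSeq table used, from 250 bases before to 50 bases after the gene start (GRCm38.p6). The promoters of Trim63 and Mstn are shown because these genes lay on opposite sides of the muscle markers at Day3, and because Trim63 is a known FoxO target. Capitals mark the motifs searched, namely the FoxO site GTAAACA on either strand, the E-box CANNTG bound by myogenic factors, and TATAAA.
Trim63 promoter, chr4:134314870-134315169, plus strand: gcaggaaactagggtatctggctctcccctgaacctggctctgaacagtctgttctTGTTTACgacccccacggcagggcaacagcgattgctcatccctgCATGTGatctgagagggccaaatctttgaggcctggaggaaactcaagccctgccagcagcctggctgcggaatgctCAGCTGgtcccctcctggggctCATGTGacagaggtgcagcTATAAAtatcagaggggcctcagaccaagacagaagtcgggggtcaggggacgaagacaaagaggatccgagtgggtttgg
Mstn promoter, chr1:53061390-53061689, plus strand: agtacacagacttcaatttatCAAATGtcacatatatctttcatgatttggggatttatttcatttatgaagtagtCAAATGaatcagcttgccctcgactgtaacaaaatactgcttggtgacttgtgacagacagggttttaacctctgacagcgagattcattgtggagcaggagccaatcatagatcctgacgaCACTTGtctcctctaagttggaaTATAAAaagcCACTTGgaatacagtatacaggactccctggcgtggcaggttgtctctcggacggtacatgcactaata
The FoxO letters begin 194 bases before the start of Trim63, on the minus strand, and 3.65% of the 32851 promoters in the table held them. E-boxes, found in 72.3% of all promoters, begin 149, 72 and 50 bases before the start of Trim63 and 229, 174, 52 and 19 bases before that of Mstn. TATAAA, found on either strand in 13.6% of promoters, begins on the plus strand 31 bases before the start of Trim63 and 29 before that of Mstn. These matches are descriptions of the letters and no test of binding.

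Each library had between 36706513 and 40655764 counts on genes. The Day0 libraries stood apart from each other. Replicates 1 and 4 differed from replicates 2 and 3 in muscle, with a mean log2 CPM over 24 skeletal muscle markers of 9.80 and 10.09 against 9.18 and 9.19, and in a list of 8 genes of myogenic regeneration (2.96 and 2.00 against -0.46 and -0.71). Fibroblast markers went the other way (10.92 and 10.24 against 12.03 and 11.97). Hair follicle genes also spread widely, with a summed level of 2826, 855, 826 and 341 CPM in replicates 1 to 4. The common coefficient of variation that edgeR fitted over all genes tested was 26.4% within Day0 and between 5.70% and 10.8% within the wound days. Every comparison with Day0 shares these 4 libraries, so the 6 comparisons are not independent, and values without replicates 1 and 4 or without 2 and 3 are given beside the member results and list counts that moved most. The edgeR fit of all 28 libraries uses 1 spread per gene for all days. For Trim63 the SD of log2 CPM was 0.948 at Day0 and between 0.0845 and 0.191 in the wound, and for Fbxo32 0.592 against 0.0384 to 0.119. For such genes the SEs and p-values against Day0 understate the spread within Day0. Fbxo30 differed, with 0.0385 at Day0 and up to 0.0945 in the wound.

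The skeletal muscle markers set the scale for everything below. Of the 24 markers, 22 were lower at Day3, 22 at Day5, 23 at Day7, 22 at Day10, 23 at Day12 and 23 at Day14 (edgeR, adjusted p under 0.05), with median log2 fold changes of -2.56, -2.43, -2.42, -1.42, -1.86 and -2.35. The Day10 median was -0.82 without Day0 replicates 1 and 4 and -1.75 without replicates 2 and 3, and on the other days the medians in these settings lay between -2.84 and -1.46. Over all genes tested the median stayed between -0.06 and 0.002, and between 24.8% (Day7) and 34.8% (Day3) were lower. The exceptions were the slow fibre genes Tnnt1, on all 6 days, and Myh7, at Day3, Day5 and Day10. Myh7 had log2 fold changes of 0.48 at Day3 (adjusted p = 0.184) and 1.49 at Day5 (adjusted p = 1.87e-04), and was the lowest of the 24 at Day12 (-3.12, adjusted p = 1.35e-07). Tnnt1 was higher at Day5 (1.16, adjusted p = 8.86e-08) and Day10 (1.25, adjusted p = 4.6e-08), and its other values lay between -0.28 and 0.12 and were not called. Acta1, skeletal actin and the most abundant marker, fell by 1.97 on the log2 scale at Day3 (SE 0.13, adjusted p = 2.18e-13). The summed level of the 24 markers was 31759.7 to 58081.4 CPM at Day0, 6730 to 8618 CPM at Day3 and 15260 to 19511 CPM at Day10, and no marker was at 0 in any library. In tissue of this kind fewer muscle cells and less RNA per muscle cell cannot be told apart.

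Klhl38 had 1532, 514, 511 and 1479 counts in the 4 Day0 libraries, then 123, 163, 162 and 163 at Day3, 233, 205, 161 and 138 at Day5 and 86, 141, 104 and 99 at Day7. It had 203, 189, 183 and 222 counts at Day10, 168, 167, 135 and 158 at Day12 and 123, 118, 153 and 120 at Day14. The gene was thus low in every wound library and did not overlap with Day0 on any day, and the Day0 libraries themselves fell into a high pair (replicates 1 and 4) and a lower pair. Per length and library size, the level was 6.31 ± 3.73 FPKM at Day0 and between 0.644 ± 0.137 (Day7) and 1.22 ± 0.107 (Day10) in the wound (mean ± SD, n = 4). The log2 fold changes against Day0 were -2.69 at Day3, -2.47 at Day5, -3.29 at Day7, -2.43 at Day10, -2.90 at Day12 and -3.12 at Day14. With only replicates 2 and 3 of Day0 these values were smaller, from -1.39 at Day10 to -2.25 at Day7. Without these replicates they were larger, from -3.03 at Day10 to -3.89 at Day7.

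Among the Day7 decreases that met the fold and p limits, with a mean of at least 10 CPM in the higher group and no overlap with Day0, Klhl38 ranked 2 of 335. Wfdc3, with a log2 fold change of -3.95, stood above it, and Mylk4 and Mylk2, kinases of myosin light chains, followed with -3.23 each. The rank is what the choice of the gene used.

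Within the wound, comparisons without Day0 and Day7 held no library that the choice of Klhl38 used. Its changes were 0.22 from Day3 to Day5 (SE 0.281, adjusted p = 0.620), 0.04 from Day5 to Day10 (SE 0.277, adjusted p = 0.920), -0.47 from Day10 to Day12 (SE 0.280, adjusted p = 0.192), -0.22 from Day12 to Day14 (SE 0.286, adjusted p = 0.558) and -0.43 from Day3 to Day14 (SE 0.287, adjusted p = 0.190). The joint edgeR test over Day3, Day5, Day10, Day12 and Day14 also missed the threshold (F = 2.09, adjusted p = 0.123), while 84.2% of all genes passed it. All 4 Day12 libraries lay under all 4 Day10 libraries (exact permutation p = 0.0286, the smallest this design allows). The shared fit takes its spread from all days, Day0 included. With edgeR on the 8 libraries of the comparison alone, the changes from Day10 to Day12 (-0.46, adjusted p = 0.00442) and from Day3 to Day14 (-0.43, adjusted p = 0.0223) passed the threshold. As a description, the level at Day7 was 0.82 lower than at Day5 and 0.86 lower than at Day10 on the log2 scale.

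**Figure D1:**
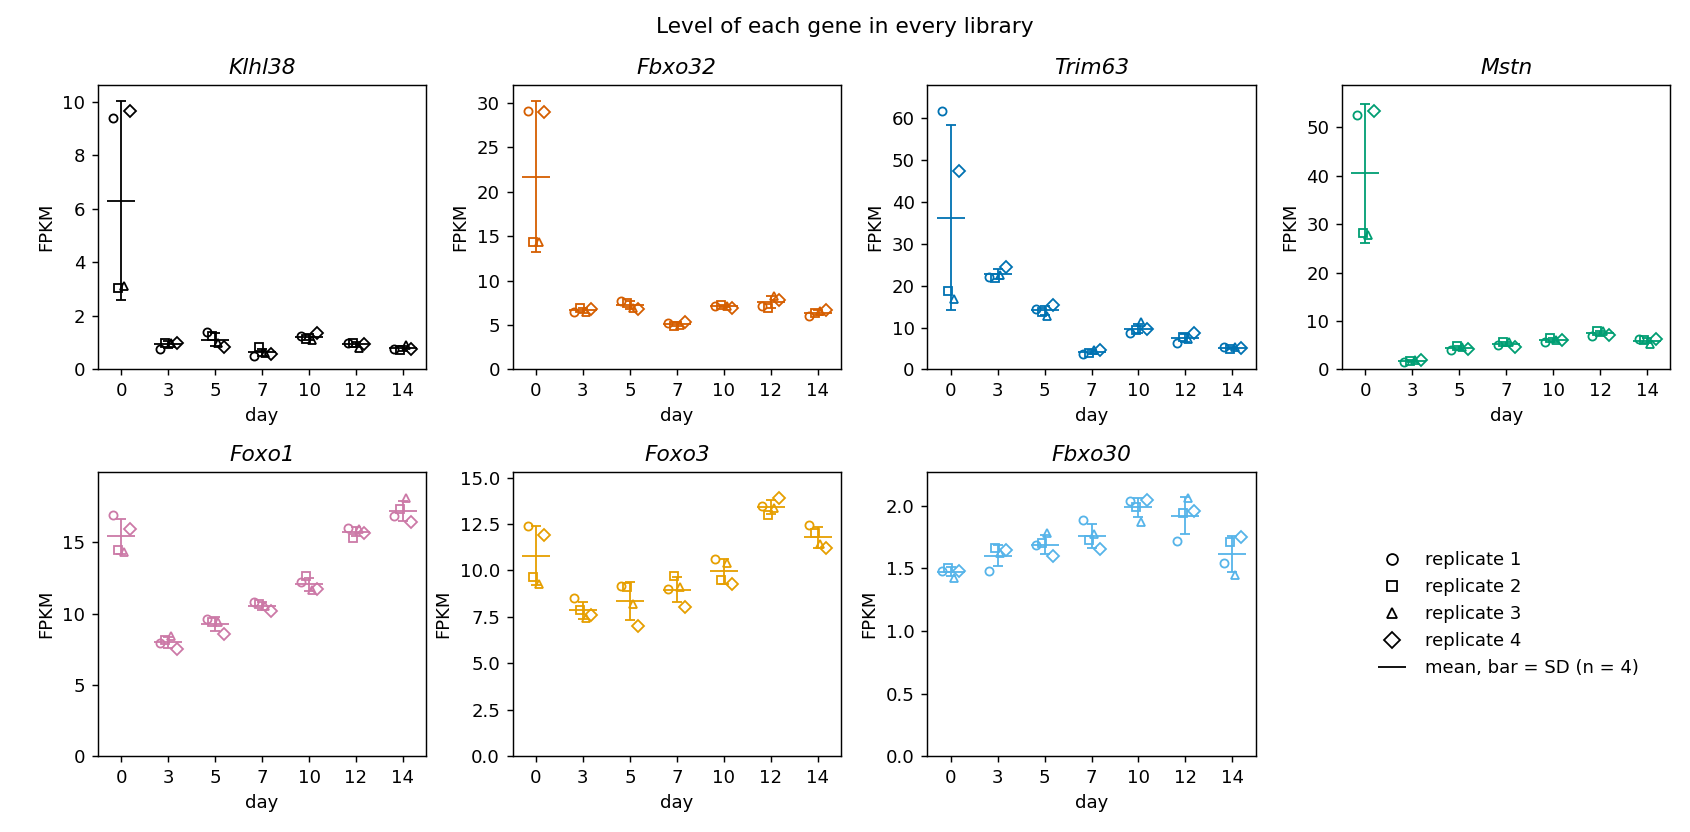
Level of each of the 7 genes (FPKM, y axis from 0, a separate scale per gene) in the 4 libraries of each day, with symbols for replicates and bars for mean and SD (n = 4). The Day0 libraries of Klhl38, Fbxo32, Trim63 and Mstn split into replicates 1 and 4 above replicates 2 and 3. Trim63 has a mean of 22.8 FPKM at Day3, between its 2 Day0 pairs, and Foxo1 climbs from 8.0 FPKM at Day3 to 17.2 FPKM at Day14.

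The ligases differed from each other. Fbxo32 fell on every wound day, Trim63 had its lowest mean level at Day7, and Fbxo30 was slightly higher than Day0 until Day12. Fbxo32 had 29.1, 14.3, 14.3 and 28.9 FPKM in the Day0 libraries, and the highest of the 24 wound libraries, at Day12, had 8.31 FPKM. The groups did not overlap on any day. The log2 fold changes were -1.65 at Day3 (SE 0.154, adjusted p = 2.8e-10), -1.54 at Day5 (adjusted p = 1.42e-09), -2.09 at Day7 (SE 0.157, adjusted p = 8.27e-12), -1.66 at Day10 (adjusted p = 7.92e-10), -1.67 at Day12 (adjusted p = 1.05e-09) and -1.89 at Day14 (adjusted p = 3.19e-11). Without Day0 replicates 1 and 4 they were between -1.49 (Day7) and -0.93 (Day5), and without replicates 2 and 3 between -2.52 (Day7) and -1.95 (Day5), all still called. Between wound days Fbxo32 fell from Day5 to Day7 (-0.56, adjusted p = 0.00655) and rose from Day7 to Day10 (0.43, adjusted p = 0.0301). The second change lost its call without replicate 1, 2 or 3 of Day7 or of Day10 (adjusted p between 0.0518 and 0.0684). The joint test over the other 5 wound days gave F = 1.43 (adjusted p = 0.270). In the shared fit the changes from Day3 to Day14 (-0.24, adjusted p = 0.158) and from Day12 to Day14 (-0.23, adjusted p = 0.236) were not called, and in edgeR on the 8 libraries of each comparison both were (-0.24, adjusted p = 8.28e-04, and -0.20, adjusted p = 0.0118).

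Trim63 had 61.8, 18.8, 16.9 and 47.6 FPKM at Day0 and 22.2, 21.9, 22.6 and 24.4 FPKM at Day3. The Day3 libraries therefore lay above 2 Day0 libraries and below the other 2, and the change was -0.62 (SE 0.240, adjusted p = 0.0256), with an exact permutation p of 0.429. That call did not hold with all libraries kept, in edgeR on the 8 libraries of the comparison (-0.64, adjusted p = 0.172) or in limma on FPKM (adjusted p = 0.114 and 0.117). It was also lost without Day0 replicate 1 (-0.17, adjusted p = 0.458), without Day0 replicate 4 (-0.41, adjusted p = 0.143) and without Day3 replicate 1, 2 or 3 (adjusted p between 0.0667 and 0.0753). The direction turned with the Day0 pair, since Trim63 was higher at Day3 without replicates 1 and 4 (0.42, adjusted p = 0.0015) and lower without replicates 2 and 3 (-1.16, adjusted p = 3.8e-10). From there the level went down to 14.1 ± 1.13 FPKM at Day5 and 4.23 ± 0.543 FPKM at Day7, was 9.79 ± 1.16 FPKM at Day10 and ended at 5.14 ± 0.228 FPKM at Day14 (mean ± SD, n = 4). Against Day0 the log2 fold changes were -1.32 at Day5 (SE 0.245, adjusted p = 3.77e-05), -3.10 at Day7 (SE 0.266, adjusted p = 1.31e-10), -1.94 at Day10 (adjusted p = 2.57e-07), -2.42 at Day12 (adjusted p = 1.21e-08) and -2.95 at Day14 (adjusted p = 1.73e-10). Without Day0 replicates 1 and 4 they were smaller, with -0.29 at Day5 (adjusted p = 0.0243), -2.07 at Day7 (adjusted p = 1.65e-16), -0.91 at Day10, -1.39 at Day12 and -1.91 at Day14, and without replicates 2 and 3 they were between -3.70 (Day7) and -1.91 (Day5).

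Between wound days, with changes that compare no Day0 library although the shared fit takes its spread from all days, Trim63 fell from Day3 to Day5 (-0.70, adjusted p = 0.0348) and from Day5 to Day7 (-1.78, adjusted p = 5.09e-06), rose from Day7 to Day10 (1.16, adjusted p = 9.68e-04), and was 5.02-fold lower at Day14 than at Day3 (log2 -2.33, SE 0.259, adjusted p = 7.68e-09). Each of these 4 changes separated the 4 libraries of one day from those of the other (exact permutation p = 0.0286). The first lost its call without Day3 replicate 4 or without Day5 replicate 1, 2 or 3 (adjusted p between 0.0592 and 0.0744), and in limma on log2(FPKM + 1) (adjusted p = 0.0537). From Day10 to Day12 (-0.48, adjusted p = 0.136) and from Day12 to Day14 (-0.53, adjusted p = 0.0985) the threshold was missed in the shared fit. In edgeR on the 8 libraries of each comparison both steps were called (-0.46, adjusted p = 1.85e-04, and -0.50, adjusted p = 3e-04). The joint test over Day3, Day5, Day10, Day12 and Day14 passed (F = 27.3, adjusted p = 1.48e-08).

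Fbxo30 was the least expressed of the 7 genes at Day0, with 1.48, 1.51, 1.43 and 1.48 FPKM, with little spread between these libraries. It was higher by 0.18 at Day3 (SE 0.0608, adjusted p = 0.0122), 0.24 at Day5 (adjusted p = 0.00134), 0.25 at Day7 (adjusted p = 0.00102), 0.38 at Day10 (SE 0.0605, adjusted p = 7.94e-06) and 0.24 at Day12 (adjusted p = 0.00198), at most 1.3-fold, and had a difference of 0.0016 at Day14 (adjusted p = 0.983). The Day3 call did not hold without composition normalization (0.12, adjusted p = 0.111), in edgeR on 8 libraries (0.15, adjusted p = 0.0717), in limma on FPKM (adjusted p = 0.161 and 0.184) or without the filter on low counts (adjusted p = 0.0509). Without Day3 replicate 1, the lowest library of that day, the Day3 value was 0.27 (adjusted p = 6.94e-04). It fell from Day12 to Day14 (-0.24, adjusted p = 0.00229) and was lower at Day14 than at Day3 (-0.18, adjusted p = 0.0126). The second call was lost without Day3 replicate 2, 3 or 4 or Day14 replicate 3 (adjusted p between 0.0521 and 0.0924), and without the filter on low counts (adjusted p = 0.139), and the value was 0.010 without composition normalization. The joint test over 5 wound days passed (F = 10.0, adjusted p = 7.93e-05).

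The FoxO factors had their lowest mean levels at Day3 and higher ones later in the wound. Foxo1 had 16.9, 14.5, 14.3 and 15.9 FPKM at Day0, 7.95, 8.12, 8.44 and 7.49 FPKM at Day3 and 16.9, 17.3, 18.1 and 16.5 FPKM at Day14. It fell on the first 4 wound days, with log2 fold changes of -0.89 at Day3 (SE 0.0573, adjusted p = 1.24e-13), -0.70 at Day5 (adjusted p = 2.88e-11), -0.55 at Day7 (adjusted p = 4.47e-09) and -0.41 at Day10 (adjusted p = 7.76e-07). The differences at Day12 (-0.11, adjusted p = 0.0973) and Day14 (0.03, adjusted p = 0.646) missed the threshold. The one at Day12 was called without Day0 replicate 3 (-0.15, adjusted p = 0.0488) and without replicates 2 and 3 (-0.19, adjusted p = 0.00843), and the one at Day14 without Day0 replicate 1 (0.16, adjusted p = 0.0123) and without composition normalization (0.16, adjusted p = 0.0116), and in limma on FPKM (adjusted p = 0.00806 and 0.00946). From Day3 to Day14 Foxo1 rose 1.89-fold (log2 0.92, SE 0.0573, adjusted p = 4.18e-14), with all 4 libraries of each wound day above all 4 of the wound day before. The steps called were Day3 to Day5 (0.19, adjusted p = 0.0138), Day10 to Day12 (0.30, adjusted p = 1.21e-04) and Day12 to Day14 (0.15, adjusted p = 0.0360). The step from Day3 to Day5 lost its call without Day3 replicate 1, 2 or 4 or Day5 replicate 3, and the one from Day12 to Day14 without replicate 2 or 4 of Day12 or 2 or 3 of Day14, or without composition normalization (adjusted p = 0.0518). The steps from Day5 to Day7 and from Day7 to Day10 were called without composition normalization (0.19 each, adjusted p = 0.00854 and 0.00688) and in both limma fits. Foxo1 had the largest joint statistic of the 7 genes (F = 91.1, adjusted p = 3.79e-14).

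Foxo3 had 12.4, 9.67, 9.26 and 11.9 FPKM at Day0 and 8.52, 7.85, 7.46 and 7.61 FPKM at Day3. It fell at Day3 (log2 fold change -0.40, SE 0.0872, adjusted p = 2.09e-04), Day5 (-0.33, adjusted p = 0.00189) and Day7 (-0.27, adjusted p = 0.0108). The Day7 call was lost without Day0 replicate 1 (-0.20, adjusted p = 0.0595), and without Day0 replicates 1 and 4 the values at Day5 (-0.13, adjusted p = 0.186) and Day7 (-0.07, adjusted p = 0.502) were not called. Without Day0 replicates 2 and 3 the values were -0.49 at Day5 (adjusted p = 1.1e-05), -0.45 at Day7 (adjusted p = 5.7e-05) and -0.34 at Day10 (adjusted p = 0.00121). At Day10, Day12 and Day14 the differences from Day0 were -0.17 (adjusted p = 0.101), 0.17 (adjusted p = 0.111) and -0.0018 (adjusted p = 0.987). Without Day0 replicates 1 and 4 they were 0.37 at Day12 and 0.20 at Day14, and the Day14 value was called. Without replicates 2 and 3 they were 0.013 and -0.097. The Day10 difference was called without Day0 replicate 2 (-0.22, adjusted p = 0.0496) or 3 (-0.24, adjusted p = 0.0258), and the Day12 difference without Day0 replicate 1 (0.26, adjusted p = 0.0138) or 4 (0.24, adjusted p = 0.034). With all libraries kept, the Day12 difference was called without composition normalization (0.31, adjusted p = 0.00316) and in limma on FPKM (0.30 and 0.32, adjusted p = 0.00293 and 0.00326). Within the wound Foxo3 rose from Day10 to Day12 (0.34, adjusted p = 0.00233) and from Day3 to Day14 (0.40, adjusted p = 2.1e-04). From Day12 to Day14 it was called lower in edgeR on 8 libraries alone (-0.15, adjusted p = 0.0190).

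Mstn had the largest decrease of the tested members on each day but Day7 and Day14, where Trim63 fell slightly more (-3.10 and -2.95). The Day0 libraries had 5541, 3091, 2958 and 5301 counts of Mstn, and the Day3 libraries 163, 186, 207 and 214. The level of Mstn was 40.5 ± 14.4 FPKM at Day0, the highest of the 7 genes, and 1.82 ± 0.216 FPKM at Day3, a 21.3-fold decrease (log2 -4.41, SE 0.177, adjusted p = 6.1e-18). It then rose 2.4-fold from Day3 to Day5 (log2 1.27, SE 0.171, adjusted p = 2.56e-06), to 4.44 ± 0.434 FPKM. Later steps up to Day12, where the level was 7.48 ± 0.532 FPKM, were 0.20, 0.16 and 0.20 and missed the threshold (adjusted p = 0.379, 0.467 and 0.317). The last of these, from Day10 to Day12, was called in edgeR on its 8 libraries (0.22, adjusted p = 0.0134). So was the next step, which went down from Day12 to Day14 (-0.28, adjusted p = 0.00452), where the shared fit gave -0.31 (adjusted p = 0.109). Against Day0 the log2 fold changes were -3.15 at Day5 (adjusted p = 2.57e-15), -2.95 at Day7 (adjusted p = 1.49e-14), -2.78 at Day10 (adjusted p = 5.81e-14), -2.58 at Day12 (adjusted p = 6.05e-13) and -2.89 at Day14 (SE 0.161, adjusted p = 1.64e-14). Without Day0 replicates 1 and 4 the values were between -3.88 (Day3) and -2.04 (Day12), and without replicates 2 and 3 between -4.76 (Day3) and -2.95 (Day12). The joint test over 5 wound days passed (F = 32.7, adjusted p = 2.43e-09).

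**Figure D2:**
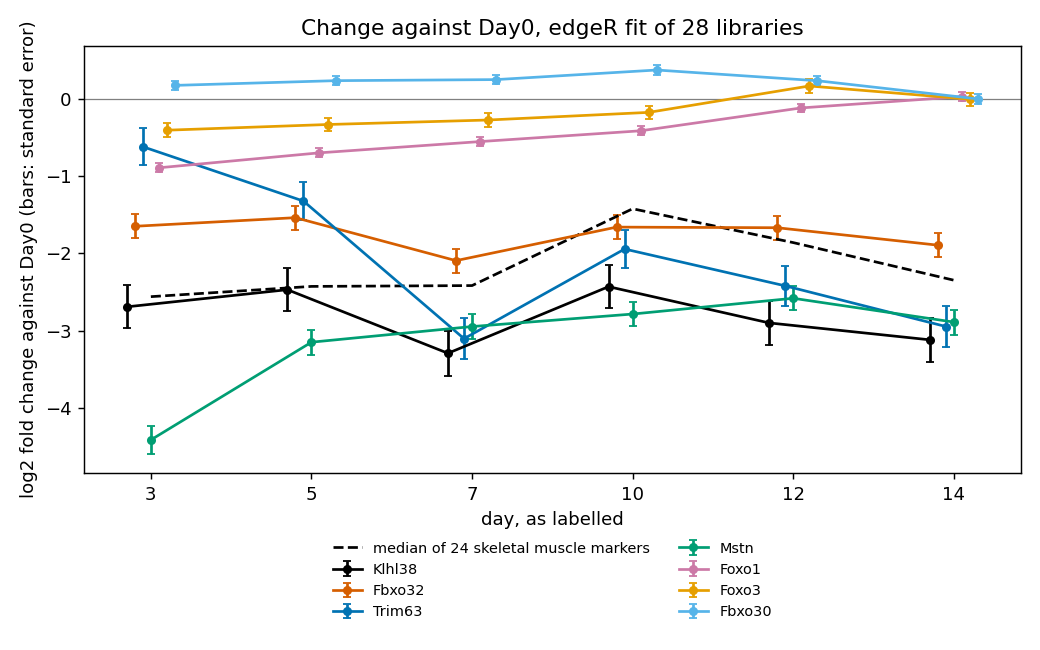
Log2 fold change against Day0 (y axis) of the 7 genes on each wound day (x axis), with standard errors from the edgeR fit of 28 libraries, and the median of the 24 skeletal muscle markers as a dashed line. At Day3 Trim63 (-0.62) lies above and Mstn (-4.41) below the dashed line (-2.56), while Fbxo30, Foxo1 and Foxo3 stay between -0.89 and 0.38 on all days.

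Counted over the 6 members tested, 5 were lower and 1 was higher at Day3, where 34.8% of all genes were lower and 31.8% higher. The counts were the same at Day5 (30.6% and 29% of all genes) and at Day7 (24.8% and 25.6%). At Day10, 4 were lower and 1 higher (26.9% and 23.5%), at Day12, 3 and 1 (25.6% and 21.7%), and at Day14, 3 and 0 (34.5% and 28.2%). By the study's limits, a log2 fold change under -1.5 with an unadjusted P under 0.05, 2 members were lower at Day3 and Day5 and 3 on each later day, against 12.4% of all genes at Day3, 8.31% at Day5, 4.74% at Day7, 5.14% at Day10, 3.51% at Day12 and 8.83% at Day14. Between neighbouring wound days, 3 of the 6 changed from Day3 to Day5 (24.3% of all genes), 2 from Day5 to Day7 (28.5%), 2 from Day7 to Day10 (32.3%), 2 from Day10 to Day12 (39.4%) and 2 from Day12 to Day14 (45.2%). From Day3 to Day14, 5 of 6 changed, where 67% of all genes did, and Klhl38 was not called from Day5 to Day10, where 49.5% of all genes were.

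Because the muscle markers fell too, the members were also set against them in each library, as log2 CPM minus the mean log2 CPM of the 24 markers. On this scale Trim63 and Mstn lay on opposite sides of their Day0 values in the early wound. Trim63 was 3.68-fold higher than at Day0 relative to muscle transcripts at Day3 (difference 1.88) and 1.96-fold higher at Day5 (0.97), then lower at Day7 (-0.69), Day10 (-0.61) and Day14 (-0.62), each time with the 4 libraries fully apart from the Day0 ones (exact permutation p = 0.0286, 0.0321 adjusted over 36 tests). At Day12 it was -0.43 (exact permutation p = 0.2). Without Day0 replicates 1 and 4 the early differences were 2.31 and 1.4 and the later ones between -0.27 (Day7) and -0.0047 (Day12). Without replicates 2 and 3 the early ones were 1.45 and 0.55 and the later ones between -1.12 (Day7) and -0.86 (Day12), all as values with no test. Without Day0 replicate 1 alone the decreases were -0.44, -0.36 and -0.36 at Day7, Day10 and Day14. With Ckm and Acta1 alone as the muscle reference none of these 3 decreases was called (adjusted exact permutation p = 0.225, 0.441 and 0.374).

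Fbxo32 relative to muscle transcripts was 1.64-fold higher at Day3 (0.71) and 1.54-fold higher at Day5 (0.62), and lower at Day10 (-0.46), with the same adjusted p of 0.0321 by exact permutation. The Day10 call was lost with the median of the markers (adjusted exact permutation p = 0.0882) or with Ckm and Acta1 alone as the reference. Its differences at Day7 (0.18), Day12 (0.19) and Day14 (0.30) had adjusted exact permutation p-values of 0.176, 0.176 and 0.0935. Mstn was lower on every day by this measure, 4.19-fold at Day3 (-2.07), 2.01-fold at Day5 (-1.0) and 3.03-fold at Day10 (-1.60), and between -0.74 and -0.69 at Day7, Day12 and Day14 (adjusted exact permutation p = 0.0321 on each day). Klhl38, given without a test, differed by -0.20 at Day3 and -0.19 at Day5, overlapping with Day0, and by -0.89, -1.09, -0.90 and -0.79 on the later days, without overlap. Its early values changed sign without Day0 replicates 1 and 4 (0.24 at both Day3 and Day5), and its later ones were then between -0.65 and -0.35. Without replicates 2 and 3 its 6 values were between -1.53 (Day10) and -0.63 (Day3 and Day5). Fbxo30, Foxo1 and Foxo3 were higher relative to muscle transcripts on all 6 days, between 0.70 and 2.45, with an adjusted exact permutation p of 0.0321 each. These tests cannot tell a rise of the 3 genes from the fall of the reference. The marker mean went from 9.56 at Day0 to 7.29 at Day3, so an unchanged gene would also score higher. Fbxo30 itself changed by 0.18 at Day3, and the median over all genes tested was -0.03. The adjusted p-values of Trim63, Fbxo32 and Mstn were computed together with these calls. Which share of the Fbxo30, Foxo1 and Foxo3 transcripts comes from muscle cannot be read from tissue RNA.

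**Figure D3:**
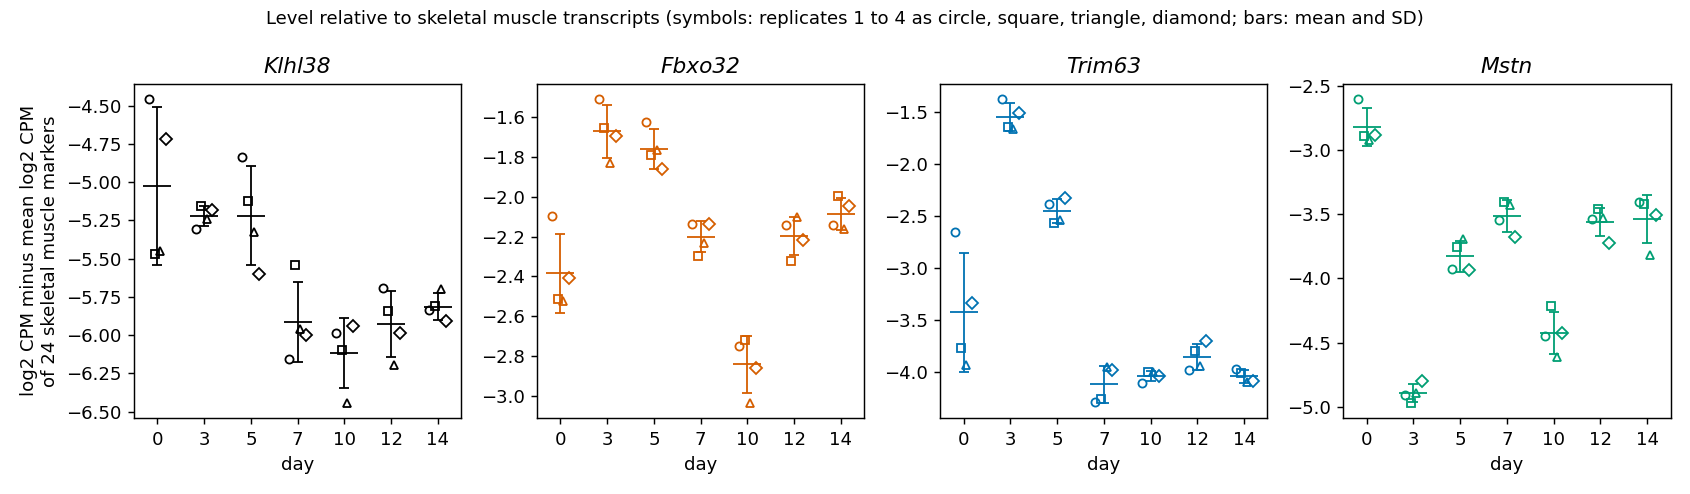
Klhl38, Fbxo32, Trim63 and Mstn relative to skeletal muscle transcripts (log2 CPM minus the mean log2 CPM of 24 markers, y axis, a separate scale per gene that does not start at 0) in every library by day, with mean and SD (n = 4). Trim63 (mean -1.55) and Fbxo32 (-1.67) are at their highest at Day3, where Mstn (-4.89) is at its lowest, and Klhl38 has its lowest mean at Day10 (-6.12).

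The other genes of the pathway were taken as lists. Of all genes tested, 34.8% were lower and 31.8% higher at Day3, and 34.5% and 28.2% at Day14. In a list of 16 further ubiquitin ligase genes, 6 were lower and 3 higher at Day3 and 7 lower and 5 higher at Day14, with medians of -0.13 and -0.12. The counts at Day3 were 4 lower and 2 higher without Day0 replicates 1 and 4, with a median of 0.04. Fbxo40, an F-box gene of muscle, fell by 2.81 at Day3 (SE 0.128, adjusted p = 9.29e-17), and Asb2, a substrate adaptor of muscle, fell by 3.22 at Day14 (SE 0.143, adjusted p = 2.47e-16). The MuRF paralogs Trim55 and Trim54 were set beside Trim63 after values were seen, so their values are given without a test. Their log2 fold changes at Day3 were -2.64 and -2.32, where Trim63 had changed by -0.62. That value was 0.42 without Day0 replicates 1 and 4 and -1.16 without replicates 2 and 3. At Day14 the values of Trim55 and Trim54 were -2.40 and -2.52, beside -2.95 for Trim63. Fbxo21, an F-box gene, was the highest of the list, with a rise of 0.86 at Day3 (adjusted p = 1.21e-06) and 0.90 at Day14 (adjusted p = 6e-07), and Nedd4, the most abundant, had -0.08 at Day3 (adjusted p = 0.316).

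The kelch genes of muscle were lower throughout. Of 7 genes (6 kelch-like genes and Cul3), 7 were lower at Day3, Day10 and Day14 and 6 at Day5, Day7 and Day12, with none higher and medians between -1.15 (Day10) and -2.33 (Day14). Of all genes tested, between 24.8% (Day7) and 34.8% (Day3) were lower. The Day10 median was -0.46 without Day0 replicates 1 and 4 and -1.33 without replicates 2 and 3, with 6 of 7 lower in both. Klhl33 fell by 3.69 at Day3 (SE 0.228, adjusted p = 5.26e-14), and Klhl34 fell by 2.95 at Day14 (SE 0.386, adjusted p = 1.84e-07). Klhl41, a sarcomere gene and the most abundant of the list, fell by 1.83 at Day3 (adjusted p = 1.24e-11) and fell by 2.33 at Day14 (adjusted p = 2.57e-13). Cul3, the ligase scaffold that is present in all cell types, changed by -0.18 at Day3 (adjusted p = 0.00249) and -0.22 at Day14 (adjusted p = 4.03e-04).

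Among 13 genes of the FoxO family and FoxO targets, 7 were lower and 6 higher at Day3 (34.8% and 31.8% of all genes). There were 6 lower and 1 higher at Day14 (34.5% and 28.2%). Ctsl, a lysosomal protease, rose by 1.45 at Day3 (SE 0.0851, adjusted p = 1.69e-14) and was at -0.12 at Day14 (adjusted p = 0.234). Foxo6 had 110 to 234 counts at Day0, 10 to 32 at Day3 and 289 to 361 at Day14, a change of -3.13 at Day3 (SE 0.270, adjusted p = 5.82e-11) and a rise of 0.72 at Day14 (adjusted p = 0.00501). Foxo4 fell on all days, by 1.1 at Day3 (adjusted p = 5.65e-14) and had -0.75 at Day14 (adjusted p = 2.08e-10). The medians of the list were -0.19 at Day3 and -0.12 at Day14. At Day14, 7 were lower and 4 higher without Day0 replicates 1 and 4.

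Of 17 genes upstream, 7 were lower and 7 higher at Day3, where 34.8% and 31.8% of all genes were. At Day14, 8 were lower and 3 higher (8 and 5 without Day0 replicates 1 and 4), where 34.5% and 28.2% of all genes were. Inhba, a subunit of activin A, which shares receptors with myostatin, went from 151 to 193 counts at Day0 to 1214 to 1319 at Day3, a rise of 2.94 (SE 0.0958, adjusted p = 7.29e-20), and remained higher by 0.55 at Day14 (adjusted p = 1.99e-05). The myostatin receptor gene Acvr2b fell by 1.5 at Day3 (SE 0.140, adjusted p = 3e-10) and had a change of -0.60 at Day14 (adjusted p = 3.29e-04). Gdf11, the closest relative of Mstn, was the lowest of the list at Day14 (-0.75, adjusted p = 3.66e-06). Akt1, the most abundant of the list, rose by 0.55 at Day3 (SE 0.0481, adjusted p = 6.47e-11) and had 0.03 at Day14 (adjusted p = 0.628).

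**Figure D4:**
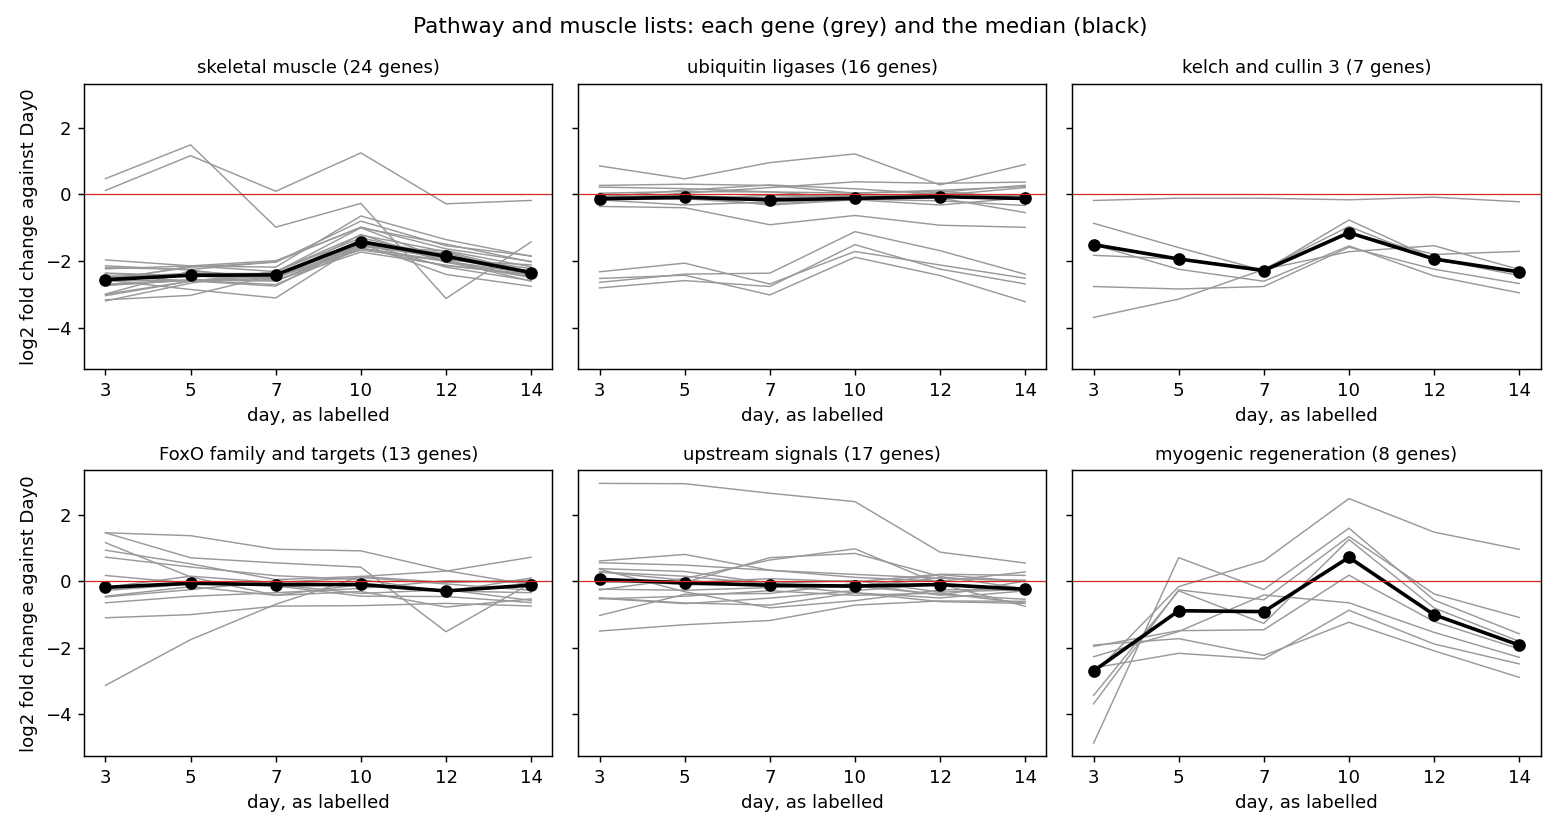
Log2 fold change against Day0 (y axis) on each wound day (x axis) for every tested gene (grey) of 6 lists, with the median of the list in black and the number of genes tested in each title. The medians of skeletal muscle and kelch genes lie between -2.56 and -1.15 on all days with all 4 Day0 libraries (-0.82 and -0.46 at Day10 without Day0 replicates 1 and 4), those of ubiquitin ligases, FoxO genes and upstream signals stay between -0.29 and 0.05, and the median of the myogenic regeneration genes is above 0 only at Day10 (0.71) with all 4 Day0 libraries, on every day but Day3 without Day0 replicates 1 and 4, and on no day without replicates 2 and 3.

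Markers of muscle regeneration and of other cells moved over the same days, and their part in the values above was not tested. For the counts below, the shares of all genes lower and higher on each day are those given with the members. The 8 myogenic regeneration genes were all lower at Day3 (median -2.70), and at Day10, 3 were higher and 2 lower (median 0.71). These counts turned on the Day0 pair. Without Day0 replicates 1 and 4, 4 were lower and 2 higher at Day3 (median -0.76), and 5 were higher on each later day, with medians from 1.66 (Day5) to 3.82 (Day10). Without replicates 2 and 3, 8 were lower at Day3 (median -3.25) and 3 lower and 2 higher at Day10 (median -0.26). Myog, the most abundant, had 0.18 at Day10 (adjusted p = 0.808). Of 18 hair follicle genes, 18 were lower at Day3 and Day5, 3 were higher at Day7, 11 were lower and 4 higher at Day10, and 18 were higher at Day12 and Day14. The Day7 count was 17 higher without Day0 replicates 1 and 4, and 0 higher and 2 lower without replicates 2 and 3. All 8 leukocyte markers were higher at Day3, Day5 and Day7, and 7 were lower at Day14. At Day3, 4 of 6 fibroblast markers were lower and 1 higher, 3 of 6 keratinocyte markers lower and 2 higher, 3 of 4 endothelial markers higher and 4 of 4 smooth muscle markers lower. At Day14 these counts were 6 lower and 0 higher, 2 and 1, 2 and 0, and 2 and 1. The fibroblast direction at Day3 turned with the Day0 pair, with 5 lower and 1 higher without replicates 1 and 4 (median -1.15) and 1 lower and 4 higher without replicates 2 and 3 (median 0.46), and at Day14 the second setting left 2 of the 6 lower. For keratinocyte markers the counts at Day14 were 2 lower and 4 higher without replicates 1 and 4 and 5 lower and 0 higher without replicates 2 and 3, and for endothelial markers 3 and 0, and 2 and 2. Among 8 adipocyte markers, 3 were lower and 3 higher at Day3 and 5 higher at Day14, and of 5 brown adipocyte markers 4 were higher at Day3 and 5 at Day14. Day12 differed, with 5 adipocyte markers lower and 0 higher, and 2 brown adipocyte markers lower and 2 higher. Across the 28 libraries, Foxo1 and Foxo3 had Pearson correlations of 0.83 and 0.73 with the mean log2 CPM of the hair follicle genes, as a description over libraries that share days and include the Day0 spread in hair genes.

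The gene most like Klhl38 across the 28 libraries was Fbxo32, its neighbour on chromosome 15, with a Pearson r of 0.97 and a Spearman rho of 0.80 (log2 CPM). Among the next were Mybpc2 (0.96), Coro6, Trim54, Retreg1, Usp13, Nipsnap2, Stim1 and Slc25a12 (all 0.95), of which Mybpc2 is one of the 24 muscle markers. The points share days and the split of the Day0 libraries, which carry most of the range. Over the 24 wound libraries alone, r with Fbxo32 was 0.75 and Fbxo32 ranked 6, with Atg9a first (0.82) and 3 of the 10 genes shared. By Spearman's rho Xirp1 came first (0.90), Fbxo32 ranked 36 and 1 of the 10 genes was shared.

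The other genes around Klhl38 did not show this pattern to the same degree. Gm36193, the lncRNA between Klhl38 and Fbxo32, had r = -0.34 with 6 to 94 counts, Fam91a1 had r = -0.32 and Fer1l6 had r = 0.78. Anxa13, which adjoins Klhl38 on the other side, had 0 to 4 counts, and Gm36112, which overlaps Fbxo32, had 0 to 5. How the counting treated strand is not given in the sources used here, so reads of Gm36112 and Fbxo32 could not be told apart where they overlap.

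**Figure D5:**
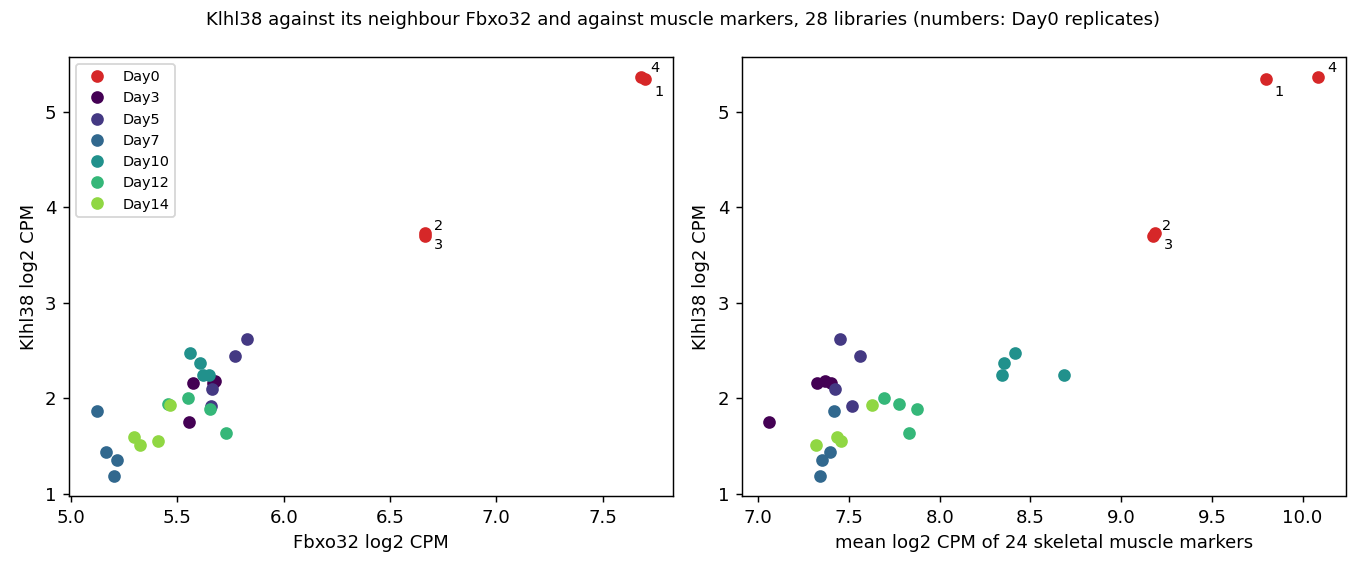
Klhl38 (log2 CPM, y axis) against Fbxo32 (log2 CPM, left) and against the mean log2 CPM of 24 skeletal muscle markers (right) in 28 libraries, coloured by day, with Day0 replicates numbered and neither axis starting at 0. The Day0 libraries stretch both relations, with r = 0.97 for Fbxo32 and 0.90 for the muscle markers over 28 libraries and 0.75 and 0.48 over the 24 wound libraries.

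Fbxo32 was most like Retreg1 (r = 0.98), Klhl38 and Mybpc2 (0.96). Trim63 was most like Fbxo31 (0.95), Lrrc2 and 2310022A10Rik (0.94 each), and Mstn was most like Mlf1 (0.96), Phtf2 and Foxo4 (0.95 each). Foxo1 was most like Fzd7, Kctd15 and Emp2 (0.97 each), Foxo3 like Dennd2c, Ptpn13 (0.89 each) and Sertad2 (0.88), and Fbxo30 like Gpr137b (0.86), P2ry10b (0.85) and Ccbe1 (0.84). With the mean of the muscle markers, the correlations over 28 libraries were 0.90 for Klhl38, 0.88 for Fbxo32, 0.89 for Mstn and 0.54 for Trim63, and over the 24 wound libraries 0.48, 0.32, 0.51 and -0.04. Among the members, Trim63 and Mstn had r = 0.30 over 28 libraries and r = -0.74 over the 24 wound libraries, and Foxo1 and Foxo3 had 0.84 and 0.85.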

How the data were processed

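TRIzol was used for RNA extraction and the VAHTS Universal V6 kit for library preparation. The authors deposited raw counts per gene symbol, without normalization, and FPKM values, which equal the count divided by a constant gene length and the library total. The submitters' processing notes name fastp, R 3.2.0 and mm10, and the aligner, the counter and strandedness are not given in the sources used here. The design text speaks of 5 repeats, and 4 libraries per day were analysed here, grouped by their labels. Total counts were 36706513 to 40655764 (median 39499595).

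The count test was edgeR 4.0.16 in R 4.3.3 (two-sided quasi-likelihood F-tests after TMM scaling and filterByExpr), with all 28 libraries in 1 model of the 7 days and no covariate (21 residual degrees of freedom), with Benjamini-Hochberg adjustment over 18107 genes. A gene was called at an adjusted p under 0.05. TMM factors lowered effective library sizes at Day3 and raised them at Day12 and Day14, so FPKM ratios and fold changes differ slightly. Exact two-sided permutation tests set the log2 CPM (with a prior count of 2) of single genes in 4 libraries against 4 others, and cannot give a p below 0.0286. Values relative to muscle used the mean log2 CPM of 24 markers and Benjamini-Hochberg adjustment over 36 tests. Scripts were tested on simulated data. The members, the gene lists and the tests were chosen with earlier results of these data known. Genes named were the 7 members, per list the most abundant gene and the genes of highest and lowest change at Day3 and Day14, the 10 genes most like Klhl38 and 3 most like each other member, and 3 neighbours on each side of Klhl38, of which 1 gene is not reported here. Trim55, Wfdc3, Mylk4, Mylk2, Atg9a and Xirp1 were named after values were seen. Replicate numbers did not pair libraries: over 84 pairs with the same number the mean correlation of deviations from the day means was 0.00064, and 1 exceeded 0.1. No 2 libraries agreed within sampling noise.

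Alternatives were DESeq2's size factors, no composition normalization, no filter, at least 10 counts in every library, the replicate number as a block, DESeq2 1.42.0, edgeR on the 8 libraries of a comparison, limma 3.58.1 on log2(FPKM + 1) and log2(FPKM + 0.1), other muscle references, and each library left out. Leaving out pairs of Day0 libraries was chosen after seeing the data. The experiments with MLKL-deficient mice and cells were not analysed here.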

Additional observations from a re-analysis of the deposited data

Results flagged for a closer look

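In Day3 replicate 1 the level of Klhl38 was 1.75 log2 CPM, while the other 3 libraries of that day lay between 2.16 and 2.19, a library far from the others by Dixon's test. The same library had 4.39 log2 CPM of Fbxo30, against 4.54 to 4.58 in the others. These were 2 of 49 groups of 4 libraries examined (7 genes on 7 days), and chance flags about 2.45 of 49.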

How the results depend on the processing

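Against Day0, the directions of Fbxo32 and Mstn and their calls held in every alternative run. Replicate numbers did not pair the libraries. With the replicate number as a block, Klhl38 was at -3.23 at Day7 and at -0.47 from Day10 to Day12 (adjusted p = 0.201), and 1 member was higher from Day5 to Day7 in place of 0. Counts of members called higher moved as follows. At Day3 the count was 0 without composition normalization, without the filter, in edgeR on 8 libraries and in both limma fits, and 2 without Day0 replicates 1 and 4. At Day12 it was 2 and at Day14 it was 1 without composition normalization, in both limma fits and without Day0 replicates 1 and 4. From Day5 to Day7 it was 1 without composition normalization, with at least 10 counts in every library and in both limma fits. Without composition normalization it was 4 from Day7 to Day10 and 0 from Day12 to Day14. Of members called lower, 1 was left from Day3 to Day14 without composition normalization, without the filter and in both limma fits, 0 from Day3 to Day5 with limma on log2(FPKM + 1), and edgeR on 8 libraries gave 1 from Day10 to Day12 and 5 from Day12 to Day14. Leaving out 1 library gave between 0 and 2 in each of these counts and between 1 and 2 higher from Day3 to Day5.

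Klhl38 on the log2(FPKM + 1) scale, which compresses low levels, was at -1.76, -1.64, -2.0, -1.57, -1.76 and -1.87 on the 6 wound days against Day0, at -0.35 from Day5 to Day7 and at 0.43 from Day7 to Day10. Without Day0 replicates 1 and 4 it was at -1.65, -1.43, -2.25, -1.39, -1.86 and -2.08, and relative to muscle at 0.24, 0.24, -0.45, -0.65, -0.47 and -0.35. Trim63 relative to muscle was then at 2.31, 1.4, -0.27, -0.18, -0.0047 and -0.19. Without Day0 replicates 2 and 3, Klhl38 relative to muscle was at -0.63, -0.63, -1.33, -1.53, -1.34 and -1.23 and Trim63 at 1.45, 0.55, -1.12, -1.04, -0.86 and -1.04. In edgeR on 8 libraries Klhl38 was at -0.46 from Day10 to Day12 and -0.43 from Day3 to Day14, both called. From Day5 to Day10 it lay between -0.067 and 0.17 with 1 library left out.

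With the median of the muscle list as reference, Fbxo32 was at 0.36 (Day7), 0.18 (Day12) and 0.50 (Day14), now called, and at -0.28 at Day10, no longer called, while Trim63 was at -0.51 at Day7, no longer called, and at -0.44 at Day12, now called. With Ckm and Acta1 alone, Fbxo32 was at 0.37 (Day7) and 0.47 (Day14), now called, and at -0.11 at Day10, and Trim63 was at -0.51, -0.26 and -0.44 at Day7, Day10 and Day14, none of these 4 called. The cause was not tested.

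Some values changed sign. Trim63 at Day3, called at -0.62 with all libraries, was called at 0.42 without Day0 replicates 1 and 4 (adjusted p = 0.0015). Fbxo30 from Day3 to Day14, called at -0.18, was not called where its sign changed. Foxo3 at Day14 was 0.033 with DESeq2 or its size factors, 0.13 without composition normalization, 0.036 without the filter, 0.069 in edgeR on 8 libraries, 0.12 and 0.13 in limma and 0.20 without Day0 replicates 1 and 4 (adjusted p = 0.0478, called), where it was also 0.025 at Day10. Foxo1 at Day12 was 0.030 without composition normalization and 0.031 and 0.033 in limma. Fbxo32 from Day10 to Day12 was 0.082 without composition normalization, 0.0041 in edgeR on 8 libraries and 0.069 and 0.077 in limma. Fbxo30 was -0.00088 and -0.00074 from Day5 to Day7 with DESeq2's size factors and DESeq2, -0.0074 at Day14 with at least 10 counts in every library, and 0.010, 0.0052 and 0.0071 from Day3 to Day14 without composition normalization and in limma. With 1 library left out, Foxo3 at Day14 was between -0.029 and 0.15 and from Day5 to Day7 between -0.013 and 0.11, Foxo1 at Day14 between -0.013 and 0.16, Fbxo32 from Day10 to Day12 between -0.055 and 0.036, and Fbxo30 between -0.029 and 0.087 at Day14, -0.016 and 0.081 from Day3 to Day5 and -0.030 and 0.033 from Day5 to Day7. Of the 10 genes most like Klhl38, 1 was shared by Spearman's rho and 3 over the wound libraries. All members had at least 86 counts in every library.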
